A study of Mus musculus with 8 samples.

Results

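Autophagy and lysosome genes were followed in the livers of mice labelled as lacking hepatic Rictor. The set held 43 genes of the 21335 genes named on the array: 21 genes of the autophagosome machinery, 3 cargo receptors, 2 transcription factors, 2 lysosomal membrane proteins, 9 lysosomal hydrolases and 6 subunits of the vacuolar ATPase. The genes were chosen by name for their place in the pathway and by no threshold on their values, although earlier results of these data were known when they were chosen. Each gene was read from its brightest probe set. All 43 had a probe set that carried their symbol alone.

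The study compared 4 livers labelled RKO with 4 control livers on Affymetrix Mouse Gene 1.0 ST arrays, with 1 array per liver. RKO mice carried Albumin-Cre and Rictor LoxP/LoxP alleles, a design meant to delete the floxed gene where the albumin promoter drives Cre, as in hepatocytes. Liver cells without Cre keep the gene. The control mice are labelled wild type, and nothing in the labels says whether they carried floxed alleles or Cre. All mice were adult males that had been fasted for 16 h and then given free access to food for 3 h. No fasted group was part of the comparison, so every value below describes the refed liver.

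Rictor is the defining subunit of mTORC2, the kinase complex that phosphorylates Akt at its hydrophobic motif. Macroautophagy begins when the ULK1 complex and a class III PI3-kinase complex start an isolation membrane. Ubiquitin-like conjugation of ATG12 and of the ATG8 proteins lets this membrane grow around its cargo, and the closed autophagosome then fuses with a lysosome whose vacuolar ATPase acidifies the lumen for the hydrolases. In liver the pathway is active in fasting and is restrained after a meal, through mTORC1 acting on the ULK1 complex and on the transcription factors TFEB and TFE3, and FoxO factors downstream of Akt also act on autophagy genes.

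No gene of the set passed the threshold of an adjusted p under 0.05 in the limma fit over all 23410 probe sets with a gene symbol, and neither did any other probe set (0.0% called). At an unadjusted p under 0.05, 12 of the 43 genes were counted (27.9%), against 11.1% of all probe sets. Of these 12, 7 had the higher mean in RKO livers (16.3% of the set, against 4.87% of all probe sets) and 5 had the lower mean (11.6%, against 6.21%). The RKO mean was the higher one for 21 genes and the lower one for 22, with a median log2 difference, RKO minus control, of -0.03, against -0.02 over all probe sets. The RKO and control values did not overlap for 4 genes, all with higher RKO values: Gabarapl2, Lamp1, Ctsd and Lipa. That is 9.3% of the set, against 2.26% of all probe sets with higher RKO values, 2.47% with lower ones and 4.72% in either direction. The 95% interval of the difference lay within 0.5 log2 units of 0 on both sides for 37 of the 43 genes (86.0%), against 88.0% of all probe sets. Every gene of the set averaged at least 8.42, above the array medians of 6.90 to 7.03, and the shares of all probe sets were not matched for level. With 4 livers a group, the exact permutation test over samples cannot give a p under 0.0286. Every gene whose groups do not overlap has this value, so there it repeats the lack of overlap and adds no support. For the overlapping genes of the set given in full, the exact permutation p ran between 0.0571 (Map1lc3a, Ctss and Atp6v1h) and 0.486 (Wipi1).

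Array RKO 1 stood apart from the other RKO arrays. Along principal component 1 (35.5% of the variance between arrays) it lay at -12.9, against 18.4 to 20.4 for RKO 2 to 4, while control 1 lay at -2.19 and controls 2 to 4 between -15.6 and -12.9. For Igfbp1, an insulin-repressed hepatocyte gene, RKO 1 lay near controls 2 to 4 and control 1 near RKO 2 to 4. It read 7.76, 10.10, 10.10 and 9.65 on RKO 1 to 4, against 10.04, 7.40, 7.30 and 7.29 on controls 1 to 4. The same crossing was seen for Irs2, an insulin receptor substrate, G6pc, the glucose-releasing phosphatase, and Scd1, a fatty acid desaturase. Scd1 read 14.02 on RKO 1 and 12.79 to 12.97 on RKO 2 to 4, against 12.66 on control 1 and 13.63 to 14.01 on controls 2 to 4. The crossing did not hold for all 7 refeeding and insulin response genes measured. Fasn read 10.79 on control 1, against 10.72 to 11.07 on controls 2 to 4 and 11.27 to 11.53 on RKO 2 to 4. Pck1 read 13.07 on control 1, against 12.67 to 12.90 on controls 2 to 4 and 13.47 to 13.73 on RKO 2 to 4. Neither the labels nor the files settle whether RKO 1 and control 1 carry each other's labels, and every difference over 8 arrays takes the labels as given. Rictor itself read 9.15, 9.51, 9.68 and 9.47 in RKO livers, against 9.47, 9.28, 9.23 and 9.64 in control livers. The Rictor groups overlapped, with a difference of 0.05 (95% interval -0.24 to 0.33). Which exons this probe set covers is not known here, so it does not check the labels, and the groups are named as labelled. Array medians ran between 6.90 and 7.03. Of the hepatocyte markers, 9 were measured, and their mean lay between 13.70 and 13.73 in RKO livers and between 13.68 and 13.74 in control livers. Results that turn on the arrays numbered 1 are given below with and without them. These 2 arrays stood out in these same values. Leaving both out raised the share of all probe sets that limma called from 0.0% to 7.85%. Adjusted p-values without them are therefore not independent support.

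**Figure D1:**
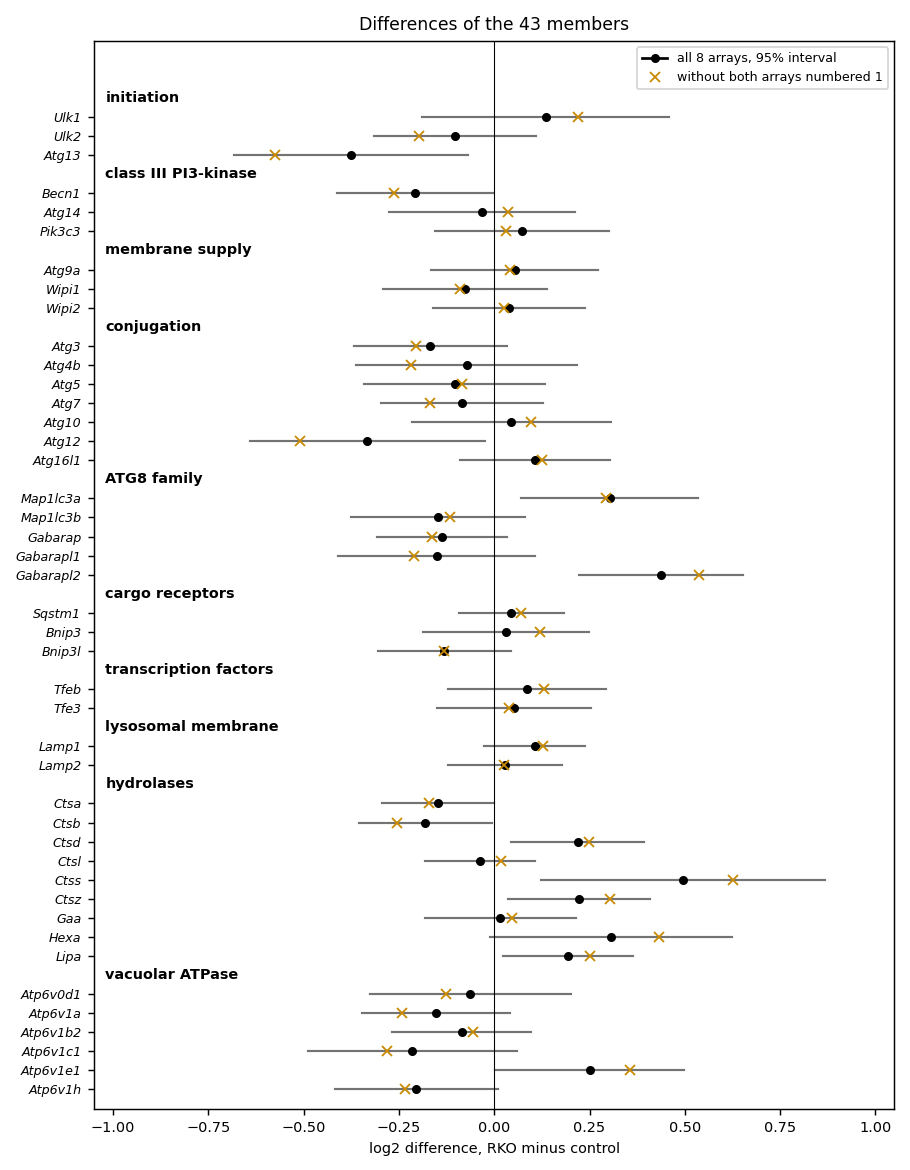
Log2 difference, RKO minus control, of each of the 43 genes, grouped by role (dots, all 8 arrays, with 95% intervals), and the difference without both arrays numbered 1 (crosses). The differences lie between -0.38 for Atg13 and 0.50 for Ctss, and 37 of the 43 intervals stay within 0.5 of 0.

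The 3 initiation genes differed in sign. Ulk1, the kinase that starts autophagy, read 9.97, 10.56, 10.60 and 10.12 in RKO livers, against 10.09, 10.00, 10.39 and 10.24 in control livers. RKO 2 and RKO 3 were the highest arrays and RKO 1 the lowest, so that the groups overlapped. The difference was 0.13 (SE 0.15), with a limma adjusted p of 0.799. Atg13, the regulatory subunit of the ULK1 complex, read 11.93, 11.36, 11.33 and 11.19 in RKO livers, against 11.71, 11.79, 12.00 and 11.81 in control livers. RKO 2, 3 and 4 lay below every control, whereas RKO 1 lay above all controls but control 3. Its difference of -0.38 (SE 0.14, 95% interval -0.68 to -0.07) had a limma adjusted p of 0.347. Without RKO 1 the difference was -0.54 and the adjusted p 0.0085, and without both arrays numbered 1 it was -0.58 with an adjusted p of 0.0021. With limma array weights, which gave RKO 1 the lowest weight, it was -0.47 with an adjusted p of 0.0396. Over all 18 alternative settings the adjusted p of Atg13 ran between 0.0021 and 0.734. Ulk2, a kinase related to Ulk1, differed by -0.10 (SE 0.10).

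In the class III PI3-kinase complex, Becn1 had the lower mean in RKO livers. Becn1, the beclin subunit that recruits regulators to the complex, read 9.65, 9.36, 9.48 and 9.41 in RKO livers, against 9.69, 9.77, 9.64 and 9.63 in control livers. RKO 1 lay among the controls and the other RKO arrays lay below all of them. The difference was -0.21 (SE 0.09), with a limma adjusted p of 0.440. Atg14, which directs the complex to autophagy, differed by -0.03 (SE 0.11), and Pik3c3, the catalytic lipid kinase, by 0.07 (SE 0.10). Among the genes that supply and mark the growing membrane, Wipi1 had the smallest p. Wipi1, a reader of phosphatidylinositol 3-phosphate, read 8.60, 8.35, 8.75 and 8.55 in RKO livers, against 8.63, 8.67, 8.67 and 8.58 in control livers. The RKO arrays spread on both sides of the controls, and the difference of -0.08 (SE 0.10) had a limma adjusted p of 0.831. Atg9a, the membrane-spanning scramblase, differed by 0.05 and Wipi2, which brings in ATG16L1, by 0.04.

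Of the 7 conjugation genes, 5 had the lower mean in RKO livers, and none passed the threshold. Atg12, the ubiquitin-like protein joined to ATG5, read 9.11, 8.41, 8.49 and 8.52 in RKO livers, against 8.92, 9.05, 8.87 and 9.03 in control livers. RKO 1 was the highest of all 8 arrays, and RKO 2, 3 and 4 were all below the lowest control. The difference was -0.33 (SE 0.14), with a limma adjusted p of 0.410. Without RKO 1 it was -0.49 (adjusted p 0.0132), without both arrays numbered 1 it was -0.51 (adjusted p 0.0084), and with array weights it was -0.43 (adjusted p 0.0480). The adjusted p of Atg12 ran between 0.0084 and 0.763 over the 18 alternatives. Atg3, the E2-like enzyme for the ATG8 proteins, read 10.80, 10.64, 10.69 and 10.72 in RKO livers, against 10.86, 10.96, 10.69 and 11.01 in control livers. Control 3 lay among the RKO arrays, and the other controls lay above all of them. Its difference was -0.17 (SE 0.09), with a limma adjusted p of 0.531. Atg5, the partner of ATG12, differed by -0.10, Atg7, the E1-like enzyme, by -0.08, and Atg4b, the protease that primes the ATG8 proteins, by -0.07. Atg10, the E2-like enzyme for ATG12, differed by 0.04 and Atg16l1, which places the conjugate on the membrane, by 0.11.

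The ATG8 family, the ubiquitin-like proteins that are attached to the autophagosome membrane, split by gene. Gabarapl2, also called GATE-16, had the smallest p of the whole set. It read 12.07, 12.18, 12.26 and 12.16 in RKO livers, against 11.93, 11.83, 11.70 and 11.47 in control livers. Every RKO array lay above every control, RKO 1 included. The difference of 0.44 (SE 0.10, 95% interval 0.22 to 0.65), a 1.36-fold difference, had a limma adjusted p of 0.129 and an exact permutation p of 0.0286, the smallest the design allows. Without RKO 1 it was 0.47 with an adjusted p of 0.0285, without control 1 it was 0.51 with 0.0334, and without both it was 0.54 with 0.0046. With array weights the adjusted p was 0.0250, and over the 18 alternatives it ran between 0.0046 and 0.491. The second, dimmer Gabarapl2 probe set averaged 6.11 in RKO livers and 6.11 in control livers, below the median of every array. It showed a difference of 0.00 (SE 0.14), and the mean of both probe sets gave 0.22 with an adjusted p of 0.491.

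Map1lc3a, which encodes an LC3 protein, read 10.21, 10.16, 10.42 and 10.06 in RKO livers, against 9.88, 9.86, 10.11 and 9.80 in control livers. Only control 3 reached into the RKO values. Its difference was 0.30 (SE 0.11), with a limma adjusted p of 0.316. The remaining ATG8 genes had the lower mean in RKO livers. Map1lc3b, the LC3 gene most used as an autophagosome marker, differed by -0.15 on its brightest probe set and by -0.15 on its second one. Gabarap differed by -0.14 (SE 0.08) and Gabarapl1 by -0.15 (SE 0.12). Control 4 was the lowest control for all 5 ATG8 genes, whereas it was the lowest control for 30.0% of all probe sets. This was not confined to the ATG8 family, as control 4 was the lowest control for 18 of all 43 genes and for 5 of the 9 hydrolases.

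**Figure D2:**
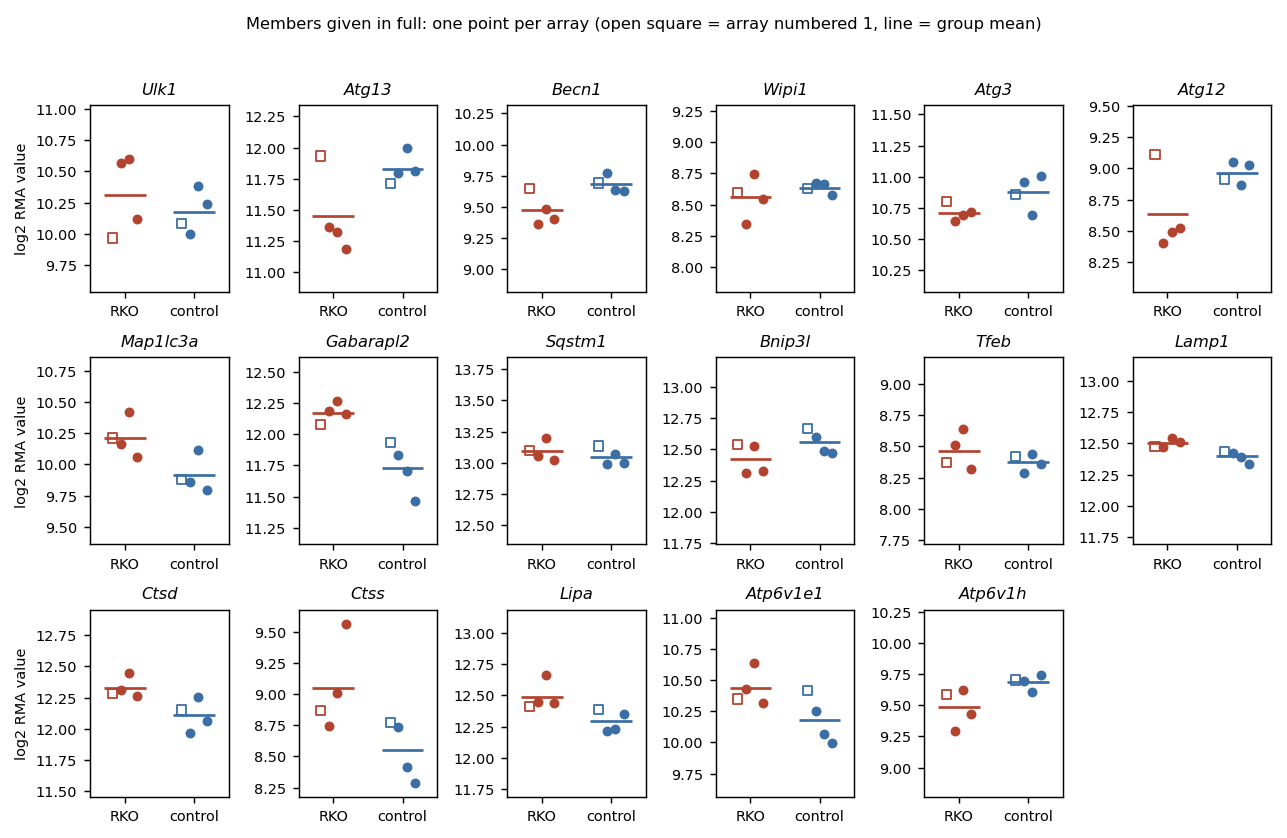
Log2 RMA value on every array for the 17 genes given in full, RKO livers at the left and control livers at the right of each panel, with open squares for the arrays numbered 1 and lines for the group means. The RKO and control points are apart for Gabarapl2, Lamp1, Ctsd and Lipa, and the open RKO squares of Atg13 and Atg12 lie among or above the controls.

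The cargo receptors and the transcription factors showed small differences. Sqstm1, the p62 receptor that carries ubiquitinated cargo and is itself degraded by autophagy, read 13.10, 13.05, 13.20 and 13.02 in RKO livers, against 13.13, 12.99, 13.07 and 13.00 in control livers. RKO 3 was the highest array and controls 2 and 4 were the lowest, and the other arrays were intermixed. The Sqstm1 difference was 0.05 (SE 0.06, 95% interval -0.09 to 0.18), with a limma adjusted p of 0.850. Bnip3l, the mitophagy receptor NIX, read 12.54, 12.31, 12.53 and 12.32 in RKO livers, against 12.67, 12.60, 12.49 and 12.47 in control livers. RKO 2 and RKO 4 lay below all controls and the other RKO arrays among them. The difference was -0.13 (SE 0.08), with a limma adjusted p of 0.581, and a second Bnip3l probe set gave -0.11. Bnip3, the related hypoxia-induced mitophagy receptor, differed by 0.03, and by -0.03 on its other probe set.

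Tfeb, which drives lysosomal genes when it enters the nucleus, read 8.37, 8.51, 8.64 and 8.32 in RKO livers, against 8.42, 8.29, 8.44 and 8.35 in control livers. RKO 2 and RKO 3 were the highest arrays, and the rest were intermixed. The Tfeb difference was 0.09 (SE 0.10), with a limma adjusted p of 0.800, and that of its relative Tfe3 was 0.05 (SE 0.09). These are transcript levels, while both factors are controlled largely by phosphorylation and by their place in the cell, which the arrays do not measure.

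TFEB and TFE3 bind the E-box CACGTG within the CLEAR element, and promoter sequences from RefSeq (GRCm38.p6) were searched for it in the 250 bases before each start, where a palindrome reads alike on both strands. Windows were matched for 33 of the 43 genes, 37 windows in all. CACGTG was found in 10 windows (27.0%), against 6.02% of all 32851 windows and 6.63% of those of protein-coding genes. Its extended form TCACGTGA, which contains the E-box, was found in 4 windows (10.8%), against 0.785% of all windows and 1.01% of those of protein-coding genes. The FoxO motif GTAAACA, searched on both strands, was found in no window of the set. Its share was 3.17% of all windows and 2.62% of those of protein-coding genes, and 37 windows are too few to tell none from such shares. The 10 genes with an E-box were Atg3, Atg5, Atg7, Bnip3, Lamp1, Ctsa, Ctsd, Ctsl, Gaa and Atp6v1a. Their median difference was -0.06 (4 higher and 6 lower), and that of the 23 genes without one was 0.04 (14 higher and 9 lower). TCACGTGA was held by Atg3, Ctsa, Ctsd and Atp6v1a. Their median was -0.15 (1 higher and 3 lower), and that of the 29 genes without it was 0.03 (17 higher and 12 lower). These splits were not tested. Stretches of 5 promoters are printed 5′ to 3′ on the strand of the gene, with CACGTG in capitals. Lamp1 carries 4 copies close to its start. The printed stretches of the other genes hold 1 or 2, and those genes differed in either direction. A further Ctsd copy, 245 bases before the start, lies in a stretch that is not printed.
Lamp1, chr8:13159089-13159160, plus strand: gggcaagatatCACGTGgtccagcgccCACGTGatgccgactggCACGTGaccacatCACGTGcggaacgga
Ctsd, chr7:142387909-142387936, minus strand: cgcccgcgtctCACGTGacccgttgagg
Ctsa, chr2:164833750-164833772, plus strand: gagcaaactgtCACGTGatgcag
Atp6v1a, chr16:44139374-44139401, minus strand: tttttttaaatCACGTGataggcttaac
Atg3, chr16:45158724-45158774, plus strand: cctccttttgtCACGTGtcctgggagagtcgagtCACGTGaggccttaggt

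The lysosomal membrane proteins had means that were close between the groups. Lamp1, a heavily glycosylated protein of the lysosomal membrane, read 12.48, 12.47, 12.54 and 12.51 in RKO livers, against 12.43, 12.42, 12.39 and 12.34 in control livers. All RKO arrays lay above all controls, by a narrow margin. The Lamp1 difference was 0.11 (SE 0.06, 95% interval -0.03 to 0.24), with a limma adjusted p of 0.556 and an exact permutation p of 0.0286. Lamp2, needed for fusion and for chaperone-mediated autophagy, differed by 0.03 (SE 0.07).

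Of the 9 hydrolases, 6 had the higher mean in RKO livers, and the class median was 0.19, the highest of the 3 classes compared. Ctsd, the aspartic protease cathepsin D, whose promoter stretch is printed above, read 12.28, 12.31, 12.45 and 12.26 in RKO livers, against 12.15, 11.96, 12.25 and 12.06 in control livers. The groups did not overlap, although RKO 4 and control 3 nearly met. The Ctsd difference was 0.22 (SE 0.08, 95% interval 0.04 to 0.39), with a limma adjusted p of 0.336 and an exact permutation p of 0.0286. Lipa, the acid lipase that frees cholesterol and fatty acids from lipids reaching the lysosome, read 12.41, 12.45, 12.67 and 12.44 in RKO livers, against 12.39, 12.21, 12.23 and 12.35 in control livers. RKO 3 was the highest array by a wide gap, while RKO 1 lay just above control 1. The Lipa difference was 0.19 (SE 0.08, 95% interval 0.02 to 0.36), with a limma adjusted p of 0.388 and an exact permutation p of 0.0286.

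Ctss, cathepsin S, a protease of macrophages and other antigen-presenting cells, had the largest difference of the set. It read 8.87, 8.75, 9.01 and 9.56 in RKO livers, against 8.77, 8.74, 8.41 and 8.29 in control livers. RKO 4 was the highest array and control 4 the lowest, and RKO 2 lay within the control range. The Ctss difference was 0.50 (SE 0.17), with a limma adjusted p of 0.309, and it was 0.32 without RKO 4. The 15 Kupffer cell and macrophage markers had the same arrays at the ends, with a mean deviation of 0.535 on RKO 4 and -0.475 on control 4. On the other arrays it was 0.111, -0.256 and -0.157 on RKO 1 to 3, and 0.292, 0.167 and -0.216 on controls 1 to 3. There the order differed: the markers were lower on RKO 3 than on controls 1 and 2, whereas Ctss was higher. Their summed level, as a list mean, ran between 8.93 and 9.73 in RKO livers and between 8.72 and 9.48 in control livers. Of the 15 markers, 11 had the higher mean in RKO livers, with a median difference of 0.16, and none passed the threshold in limma (2 at an unadjusted p under 0.05, both higher, against 4.87% of all probe sets). Their part in the Ctss values was not tested, and in whole liver more macrophages and more RNA per macrophage cannot be told apart.

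The other hydrolases ran both ways. Ctsz, a carboxypeptidase, differed by 0.22 (SE 0.09) and Hexa, the alpha subunit of hexosaminidase, by 0.31 (SE 0.15). Hexa read 9.64 on control 4, against 10.03 to 10.46 on the other controls, and without control 4 its difference was 0.17. Ctsb, the cysteine protease cathepsin B, differed by -0.18 (SE 0.08) and Ctsa, the serine carboxypeptidase that also protects other lysosomal enzymes, by -0.15 (SE 0.07). Ctsl, cathepsin L, differed by -0.04 and Gaa, the glucosidase that breaks down lysosomal glycogen, by 0.02. The 6 cathepsins were divided, 3 higher and 3 lower in RKO livers. Without both arrays numbered 1, limma called Ctsz (0.30, adjusted p 0.0409) and Ctsb (-0.25, adjusted p 0.0425). Over the 18 alternatives, the adjusted p ran between 0.0409 and 0.757 for Ctsz and between 0.0425 and 0.756 for Ctsb.

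Of the 6 vacuolar ATPase subunits, 5 had the lower mean in RKO livers, with a class median of -0.12. Atp6v1e1, a stalk subunit of the cytosolic V1 sector, was the exception. It read 10.35, 10.43, 10.64 and 10.32 in RKO livers, against 10.42, 10.25, 10.07 and 9.99 in control livers. Control 1 lay among the RKO arrays and the other controls lay below them. The Atp6v1e1 difference was 0.25 (SE 0.11), with a limma adjusted p of 0.445. Atp6v1h, a V1 subunit that regulates the pump, read 9.58, 9.29, 9.62 and 9.43 in RKO livers, against 9.70, 9.69, 9.61 and 9.74 in control livers. RKO 3 just reached control 3, and the other RKO arrays lay below all controls. The Atp6v1h difference was -0.20 (SE 0.10), with a limma adjusted p of 0.471. Atp6v1a, the catalytic subunit, differed by -0.15 and Atp6v1b2, its partner in the V1 head, by -0.09. Atp6v1c1, a stalk subunit, differed by -0.22 (SE 0.13), and Atp6v0d1, which links the membrane sector to the stalk, by -0.06 (SE 0.12).

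Set side by side, the 21 autophagosome genes had a median difference of -0.08 (8 higher, 13 lower in RKO livers), the 6 vacuolar ATPase subunits -0.12 (1 higher, 5 lower) and the 9 hydrolases 0.19 (6 higher, 3 lower), against -0.02 and 44.3% higher over all probe sets. Per array, the mean deviation of the hydrolases from their own 8-array means was 0.04, 0.01, 0.14 and 0.04 on RKO 1 to 4, against 0.06, -0.08, -0.06 and -0.16 on controls 1 to 4. Control 1 alone lay within the RKO range. The autophagosome mean was 0.10, -0.09, 0.01 and -0.10 on RKO 1 to 4, against 0.05, 0.01, 0.03 and -0.02 on controls 1 to 4. There, RKO 2 and RKO 4 were below every control and RKO 1 was above every control. The vacuolar ATPase mean was 0.10, -0.14, 0.05 and -0.16 on RKO 1 to 4, against 0.12, 0.06, -0.03 and 0.00 on controls 1 to 4. RKO 2 and RKO 4 were again the lowest arrays.

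RKO 1 was the highest RKO array for 13 of the 21 autophagosome genes, against 30.0% of all probe sets, and for 20 of all 43 genes. This was not particular to RKO 1. RKO 3 was the highest RKO array for 19 of the 43 genes, against 20.7% of all probe sets. Control 1 was the highest control for 23 of the 43, against 27.6%. RKO 1 lay nearer to the control mean than to the mean of RKO 2 to 4 for 27 of the 43 genes, against 61.5% of all probe sets. Without RKO 1 the class medians were -0.12 for the autophagosome genes, -0.19 for the vacuolar ATPase subunits and 0.22 for the hydrolases. Without RKO 2 the autophagosome median was -0.02, and without control 3 it was -0.04. With RKO 1 left out limma called 3 of the 43 genes (Gabarapl2 higher, Atg13 and Atg12 lower), against 4.5% of all probe sets (1.59% higher, 2.9% lower). Array weights called the same 3 genes, against 3.95% of all probe sets (1.98% higher, 1.97% lower), and leaving out control 1 called Gabarapl2 alone, against 1.09%. With both arrays numbered 1 left out it called 5 (Gabarapl2 and Ctsz higher, Atg13, Atg12 and Ctsb lower), 11.6% of the set against 7.85% of all probe sets (3.2% higher, 4.66% lower).

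**Figure D3:**
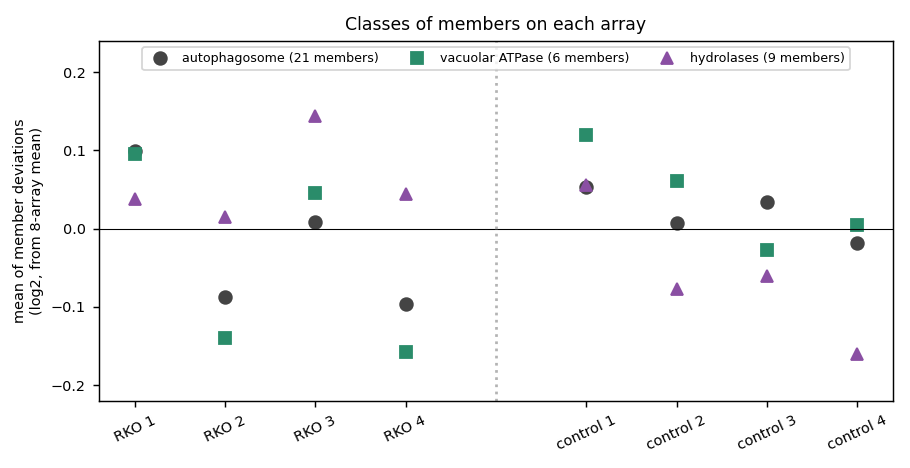
Mean deviation of the genes of 3 classes from their own 8-array means (log2), for each RKO array at the left and each control array at the right. The hydrolases lie between 0.01 and 0.14 on the RKO arrays and between -0.16 and 0.06 on the control arrays, and the other classes are highest on RKO 1 among the RKO arrays.

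Beyond the 43 genes, 116 further genes of the pathway were measured of 125 listed, and 50 had the higher and 66 the lower mean in RKO livers, with a median of -0.03. None passed the threshold in limma, and at an unadjusted p under 0.05 there were 5 higher and 12 lower, against 4.87% and 6.21% of all probe sets. Of the 116, the groups did not overlap for Rb1cc1, Ctsf and Tax1bp1, with higher RKO values, and for Atp6v0a2 and Crtc2, with lower ones. Over all probe sets the shares were 2.26% higher, 2.47% lower and 4.72% in either direction. The 34 other hydrolases and activators had a median of -0.07 (14 higher, 20 lower), on the other side of 0 from the 0.19 of the 9 hydrolases above. Arsb, the arylsulfatase that acts on dermatan sulfate, differed by -0.47 (SE 0.15, limma adjusted p 0.275), and Ctsf, cathepsin F, by 0.28 (SE 0.09, limma adjusted p 0.297) with no overlap between the groups. The 16 other vacuolar ATPase subunits had a median of -0.01 (6 higher, 10 lower). Atp6v0d2, an isoform of the linking subunit, differed by -0.58 (SE 0.17, limma adjusted p 0.242), and Atp6v1d, a subunit of the central stalk, by -0.40 (SE 0.13, limma adjusted p 0.286).

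The 22 other autophagosome genes had a median of -0.04 (9 higher, 13 lower). Nrbf2, a subunit of the class III PI3-kinase complex beside Becn1, differed by -0.49 (SE 0.14, limma adjusted p 0.217), and Tmem41b, a scramblase needed for autophagosome formation, by -0.52 (SE 0.20, limma adjusted p 0.345). Of the 9 other cargo receptors and mitophagy genes, 8 had the higher mean in RKO livers, with a median of 0.08. Tax1bp1, a receptor for ubiquitinated cargo, differed by 0.25 (SE 0.10, limma adjusted p 0.351) with no overlap, and Nbr1, a partner of p62, by 0.12 (SE 0.08, limma adjusted p 0.642). The 23 other membrane and sorting genes had a median of -0.07 (8 higher, 15 lower). Among these, Slc17a5, the lysosomal sialic acid carrier, differed by -0.25 (SE 0.09, limma adjusted p 0.345), and Gga3, a sorting adaptor at the Golgi, by -0.40 (SE 0.15, limma adjusted p 0.349).

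Of the 12 regulators of autophagy and lysosome transcription, 5 had the higher and 7 the lower mean in RKO livers. Crtc2, a CREB coactivator that is active in fasting, had the smallest p of all these genes. It read 9.93, 9.78, 9.56 and 9.53 in RKO livers, against 9.99, 10.14, 10.32 and 10.44 in control livers. All RKO arrays lay below all controls. The difference was -0.52 (SE 0.12, 95% interval -0.79 to -0.25), with a limma adjusted p of 0.144 and an exact permutation p of 0.0286. Mitf, a relative of Tfeb, differed by -0.22 (SE 0.12, limma adjusted p 0.543). Without RKO 1, limma called 10 of the 116 genes (8.62%, against 4.5% of all probe sets), all lower in RKO livers. Without both arrays numbered 1 it called 15 (12.9%, against 7.85%), 14 of them lower and 1 higher, and with array weights 6 (5.17%, against 3.95%), all lower. Crtc2, Nrbf2, Tmem41b, Atp6v0d2, Atp6v1d and Arsb were called in all 3 of these settings. Each was read from its brightest probe set only, of 3 for Nrbf2 and of 2 for Tmem41b and for Arsb. Atp6v0d2 was dim, with means of 7.02 in RKO livers and 7.60 in control livers, where array medians ran between 6.90 and 7.03. Without both arrays numbered 1 the Crtc2 difference was -0.67. The gene called higher there, named after its values were seen, was Npc1, a cholesterol carrier of the lysosomal membrane, at 0.37.

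**Figure D4:**
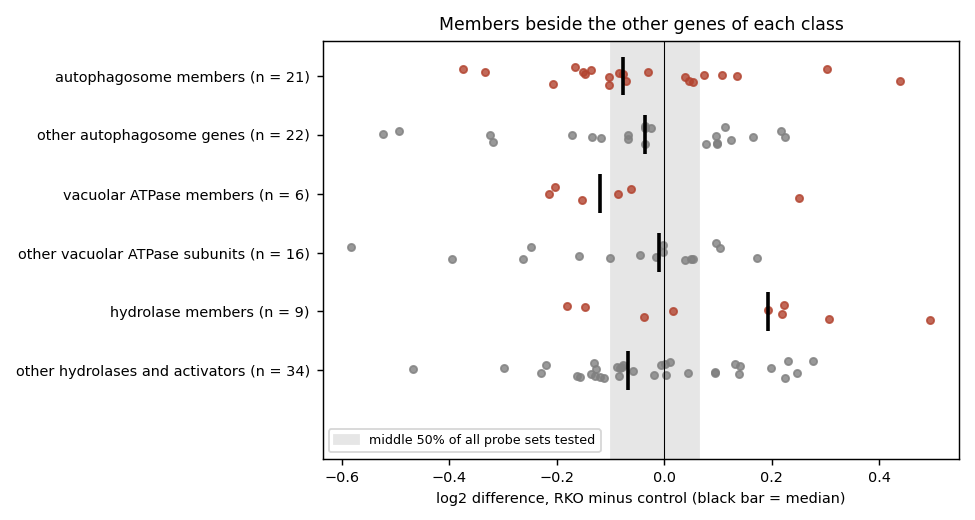
Log2 difference, RKO minus control, of the autophagosome, vacuolar ATPase and hydrolase genes of the set (coloured points) and of the other measured genes of each class (grey points), with medians as black bars and the middle 50% of all probe sets shaded. The hydrolases of the set have their median at 0.19 and the other hydrolases and activators at -0.07.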

How the data were processed

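RNA of 8 livers was measured on Affymetrix Mouse Gene 1.0 ST arrays. Per the submitters' processing notes, the authors used Affymetrix Expression Console, RMA and Partek, and no versions are given. The authors deposited 1 RMA value per probe set and array, and these are read here as log2 values because of their range and because RMA gives that scale, as no source states a log base. They were used as deposited. RMA summarises the probes of a probe set after quantile normalization, so a shift shared by all genes would not be seen. A genome build for the array design was not given in these sources.

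Gene symbols came from the annotation of the platform: of 35556 probe sets, 21789 had 1 symbol, 1621 several and 12146 none. limma 3.58.1 (in R 4.3.3, with eBayes moderation along a trend of variance on mean level) compared RKO with control livers over the 23410 probe sets with a symbol, and p-values were adjusted over all of them by the Benjamini-Hochberg method at 0.05. The spread is that between 4 mice a group, and this number limits the precision. The fit was tested on simulated data. Exact permutation tests were two-sided.

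The members, the gene lists and the tests were chosen with earlier results of these data known. Given in full were the gene with the smallest p in each role (in roles of 5 or more genes, the 2 smallest), every gene whose groups did not overlap, and Ulk1, Sqstm1, Tfeb, Lamp1 and Ctsd. From each other pathway list, the 2 genes with the smallest p and every gene whose groups did not overlap were named. The planned rule was the 2 smallest p and any gene past the threshold, and none passed. Naming by lack of overlap, which added Rb1cc1 and Atp6v0a2, was not part of it. Samples with the same replicate number did not deviate together, so no pairing was used. Promoters are RefSeq windows of GRCm38.p6, and 10 genes had none in the table used.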

Additional observations from a re-analysis of the deposited data

Results flagged for a closer look

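Each group of 4 arrays was examined for a single array far from the other 3, for every one of the 43 genes, and 6 of 86 groups held one (6.98%, where chance gives about 5%). In RKO livers, Atg12 read 9.11 on RKO 1, against 8.41 to 8.52 on the other RKO arrays, Atg5 read 9.16 on RKO 2, against 9.46 to 9.51, and Lipa read 12.67 on RKO 3, against 12.41 to 12.45. In control livers, Wipi2 read 10.40 on control 1, against 10.24 to 10.25 on the other controls, Atp6v1c1 read 9.73 on control 3, against 10.05 to 10.07, and Atp6v0d1 read 10.85 on control 4, against 11.12 to 11.17.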

How the results depend on the processing

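In limma, none of the 43 genes passed the adjusted threshold with all 8 arrays weighted alike. Array weights gave 3 (6.98% of the set, against 3.95% of all probe sets). Leaving out both arrays numbered 1 gave 5 (11.6%, against 7.85%). Leaving out single arrays gave between 0 and 3. There were 3 without RKO 1 (6.98%, against 4.5% of all probe sets) and 1, Gabarapl2, without control 1 (2.33%, against 1.09%). No gene passed under the other alternatives: quantile normalization, median centring, no variance trend, other choices of probe sets, or the replicate number as a block. With the replicate block Gabarapl2 had an adjusted p of 0.293, and 1 of 4 RKO arrays correlated best with the control of its own number. 38 of the 43 genes passed under none of the 18 alternatives.

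The sign of the difference turned for Atg14 with array weights (0.022, against -0.03) and without both arrays numbered 1 (0.0365), for Bnip3 as the mean of its probe sets (-0.00036, against 0.03), and for Ctsl without both arrays numbered 1 (0.017, against -0.04). Leaving out single arrays turned the sign of 7 genes. The ranges were -0.089 to 0.068 for Atg14, -0.012 to 0.080 for Wipi2, -0.0037 to 0.14 for Atg10, -0.0365 to 0.093 for Bnip3, -0.021 to 0.052 for Lamp2, -0.029 to 0.063 for Gaa and -0.16 to 0.023 for Atp6v0d1. The cause was not tested. The class medians kept their direction under every alternative for the autophagosome genes (-0.12 to -0.02 with single arrays left out), the vacuolar ATPase subunits (-0.19 to -0.09) and the hydrolases (0.135 to 0.225).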
